A study of Hordeum vulgare subsp. vulgare with 8 samples.

Results

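Among the barley genes with alternative splicing (AS) in germinating embryos, 28 of 4634 had a constitutive exon whose read depth rose between 24 h and 48 h of imbibition. An exon was taken when its depth at 48 h was at least 2 times its depth at 24 h in at least 2 varieties and was lower at 48 h in no variety. Only exons listed at both times in a variety gave a ratio, and 563 genes had the same exon at both times in at least 2 varieties, so the 28 genes were 4.97% of those that could be chosen. The genes were chosen by this ratio. All values of the 48 h against 24 h contrast are therefore a description, with no test.

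The libraries came from embryos of Bass, Harrington, Stirling and Baudin, separated from the endosperm after imbibition of whole seeds in the dark for 24 h or 48 h. Each of the 8 libraries was made from the embryos of many seeds, with 1 library per variety and time and no replicate, so spread could be judged only from the 4 varieties, which also differ in genotype. All seeds were surface-sterilised before imbibition, and no treatment was compared. For each library the authors deposited lists of alternative 3′ splice site (A3S) and alternative 5′ splice site (A5S) events, which held 15995 events in all.

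During germination the embryo takes up water, resumes metabolism, and then enlarges and begins to divide its cells, while transcripts stored in the dry seed are replaced by newly made ones. An A3S event moves the start of an exon and an A5S event moves its end, so that bases are added to or removed from the mature mRNA. If the number of bases is not a multiple of 3, the reading frame shifts. Every listed event has a constitutive exon, an annotated exon and the alternative form of the annotated exon, each with its mean read depth. For the constitutive and annotated exons this is the mean number of reads over the bases covered by reads. A ratio of such depths thus leaves out any change in the share of bases covered.

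Depths were not scaled for library size. The lists held between 1711 and 2537 events and between 1372 and 1893 genes per library, and the median depth of the constitutive exon was between 20.1 and 26.6. Over all exons listed at both times, the median log2 ratio of 48 h over 24 h was -0.39, -0.11, -0.15 and -0.17 in Bass, Harrington, Stirling and Baudin. The exons of the 28 genes thus rose against a background that was slightly lower at 48 h. In whole embryos, more cells of a type and more RNA per cell cannot be told apart. An exon is listed only where an event was called, so absence from a list is not a measured 0. The preparation of the libraries is not stated to keep the strand, so reads of an overlapping antisense gene cannot be told apart from those of the gene.

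The rule took 30 exons of the 28 genes, and these gave 88 ratios over the 4 varieties. The ratio was 2 or more in 72 of the 88 and between 1 and 2 in the other 16. The median ratio was 3.27, and 14 ratios were 10 or more. In Bass, 18 of 21 exons were past 2, with a median ratio of 7.23, where 9.45% of all exons were past 2. In Harrington, 19 of 20 exons were past 2 with a median of 4.09 (9.98% of all exons). In Baudin, 17 of 19 exons were past 2 with a median of 3.38 (9.37% of all exons). In Stirling, 18 of 28 exons were past 2 with a median of 2.32 (7.67% of all exons). These shares are set by the rule and nothing is read from them. The mean over the varieties of the median log2 ratio was 1.97 ± 0.68 (SD, n = 4 varieties), and it was 2.17 ± 0.78 (SD, n = 4) after the median of all exons was subtracted.

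**Figure D1:**
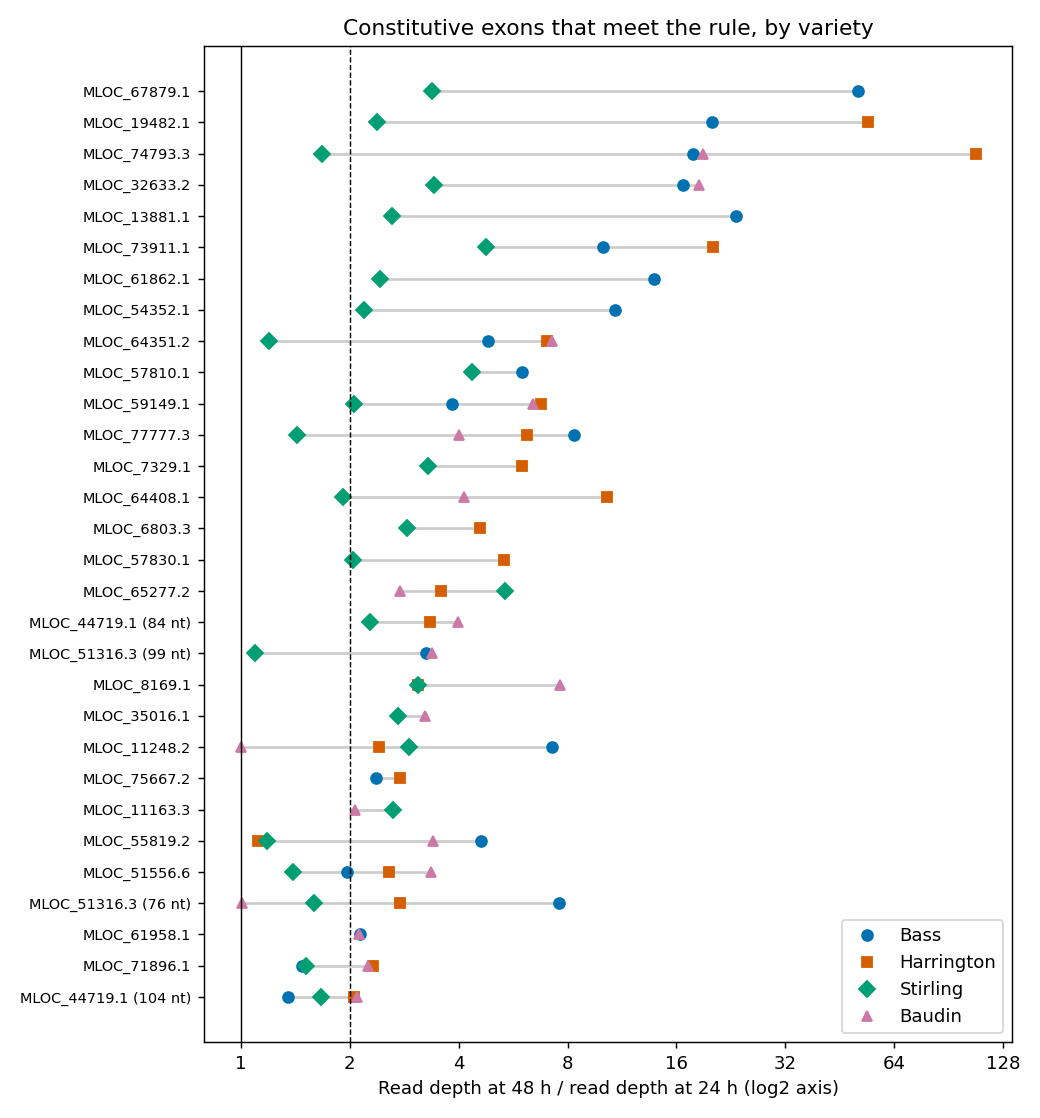
Ratio of the read depth at 48 h to that at 24 h (x axis, log2 scale) for each of the 30 exons that meet the rule (y axis, ordered by median ratio), with a symbol for each variety and a grey line over its range. The dashed line marks the ratio of 2, 19 exons are past it in every variety in which they were listed, and Stirling has the lowest ratio in most rows.

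Both seed-protein genes with a description were listed in all 8 libraries. The lectin gene MLOC_59149.1 (LG01, plus strand, exon from 88596687 to 88596809) encodes a carbohydrate-binding protein of a kind that cereal embryos accumulate. At 24 h its exon had depths of 131, 188, 301 and 136 in Bass, Harrington, Stirling and Baudin. By 48 h they were 501, 1272, 618 and 874 in the same order. The lowest value at 48 h was above the highest at 24 h, and it was the only exon past 2 in all 4 varieties, with ratios of 3.83, 6.76, 2.05 and 6.43. The late embryogenesis abundant (LEA) protein gene MLOC_77777.3 belongs to a class of proteins that protect cells during the drying of the seed. Its constitutive exon (LG02, plus strand, from 146330625 to 146330684) had 24 h depths of 88.4, 131, 458 and 3.48 in Bass, Harrington, Stirling and Baudin. By 48 h the depths were 736, 811, 654 and 13.98. Baudin was far below the other varieties at both times in this exon, although its ratio of 4.01 was past 2. The annotated exon of the same gene did not share this very low level, with depths of 309.9 at 24 h and 2098 at 48 h in Baudin, against 454 and 4541 in Bass.

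The metallothionein gene MLOC_8169.1 encodes a small cysteine-rich protein that binds metal ions. Its 48-nt exon (LG04, minus strand, from 69406953 to 69407000) was listed at both times in 3 varieties. The 24 h depths of Harrington, Stirling and Baudin were 37.2, 13.8 and 10.6, and the 48 h depths were 115, 42.5 and 80.5. In Bass it was listed only at 48 h, with a depth of 27.9, below the 24 h value of Harrington. The ratios were 3.09, 3.08 and 7.60. An annotated exon of this gene (from 69407212 to 69407261) was far deeper. It went from 842 to 1893 in Harrington, from 269 to 1044 in Stirling and from 280 to 1345 in Baudin. Its ratios there were 2.25, 3.88 and 4.81, and Bass had 876 at 48 h.

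A microtubule-severing protein and a mitotic cyclin were each represented by 1 gene. Katanin p60 is the ATPase that severs microtubules, and the katanin p60-like gene MLOC_64351.2 was listed in all 8 libraries. Its exon (LG01, minus strand, from 132534252 to 132534373) had 24 h depths of 27.6, 28.5, 123 and 24.0 in Bass, Harrington, Stirling and Baudin. By 48 h they were 133, 200.1, 147 and 173. The times did not overlap, but Stirling was already near its 48 h level at 24 h, and its ratio was 1.20 against 4.81 to 7.23 in the other varieties. The other constitutive exons of this gene had ratios of 0.96, 1.12 and 0.93 in Stirling, and its annotated exons starting at 132532294 and 132534067 had 1.40 and 1.34. In Bass 2 of those other constitutive exons had ratios of 5.40 and 3.94.

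Cyclin B1 is the partner of the cyclin-dependent kinase at entry into mitosis. The exon of its gene MLOC_6803.3 (LG04, minus strand, from 53388759 to 53388910) had depths of 16.4 in Harrington and 11.9 in Stirling at 24 h and of 75.3 and 34.5 at 48 h. Bass and Baudin had the exon only at 48 h, with depths of 54.1 and 88.0. All 4 values at 48 h were above both values at 24 h.

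The gene for cleavage and polyadenylation specificity factor (CPSF) subunit 5, MLOC_64408.1, encodes a protein of the complex that cuts and tails the 3′ end of pre-mRNA. Its exon (LG01, minus strand, from 133186128 to 133186214) had 24 h depths of 2.97, 16.2 and 2.83 in Harrington, Stirling and Baudin. By 48 h they were 30.4, 31.0 and 11.7, with 18.3 in Bass. Stirling at 24 h was above Baudin at 48 h, so the times overlapped. The ratios of 10.3 and 4.13 in Harrington and Baudin rest on 24 h depths under 5, which correspond to 258 and 243 sequenced bases over the exon.

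Enzymes and membrane proteins made up the rest of the genes with a known function. The cytochrome P450 gene MLOC_54352.1, of a family of haem-containing oxygenases, had depths of 23.4 in Bass and 88.9 in Stirling at 24 h and of 254 and 195 at 48 h (LG01, plus strand, from 49921127 to 49921248). The NADP-dependent D-sorbitol-6-phosphate dehydrogenase gene MLOC_61958.1 encodes an enzyme known from sorbitol synthesis in fruit trees of the rose family. Its exon (LG01, minus strand, from 111450303 to 111450435) was at 77.6 in Bass and 65.7 in Baudin at 24 h and at 165 and 139 at 48 h, which gave similar ratios of 2.13 and 2.12. Stirling had it only at 24 h, at 96.0.

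Ribonucleoside hydrolase 1 splits nucleosides into base and ribose. Its gene MLOC_57810.1 (LG01, minus strand, exon from 77903616 to 77903792) was thinly covered, with depths of 2.32 in Bass and 2.71 in Stirling at 24 h and of 13.9 and 11.8 at 48 h. The share of the exon's bases covered by reads went from 0.51 to 0.82 in Bass and from 0.50 to 0.85 in Stirling. The gene MLOC_73911.1 is described as related to receptor expression-enhancing protein 3, which in animals belongs to a family that shapes the endoplasmic reticulum. Its 27-nt exon (LG02, minus strand, from 84805451 to 84805477) had depths of 2.00 in Bass, 2.00 in Harrington and 10.7 in Stirling at 24 h. At 48 h it had 20.1, 40.3 and 51.1, with 37.2 in Baudin. All 4 values at 48 h were above the values at 24 h, but the ratios of 10.04 and 20.1 in Bass and Harrington stand on 42 and 30 sequenced bases at 24 h. These covered shares of 0.78 and 0.56 of the exon.

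**Figure D2:**
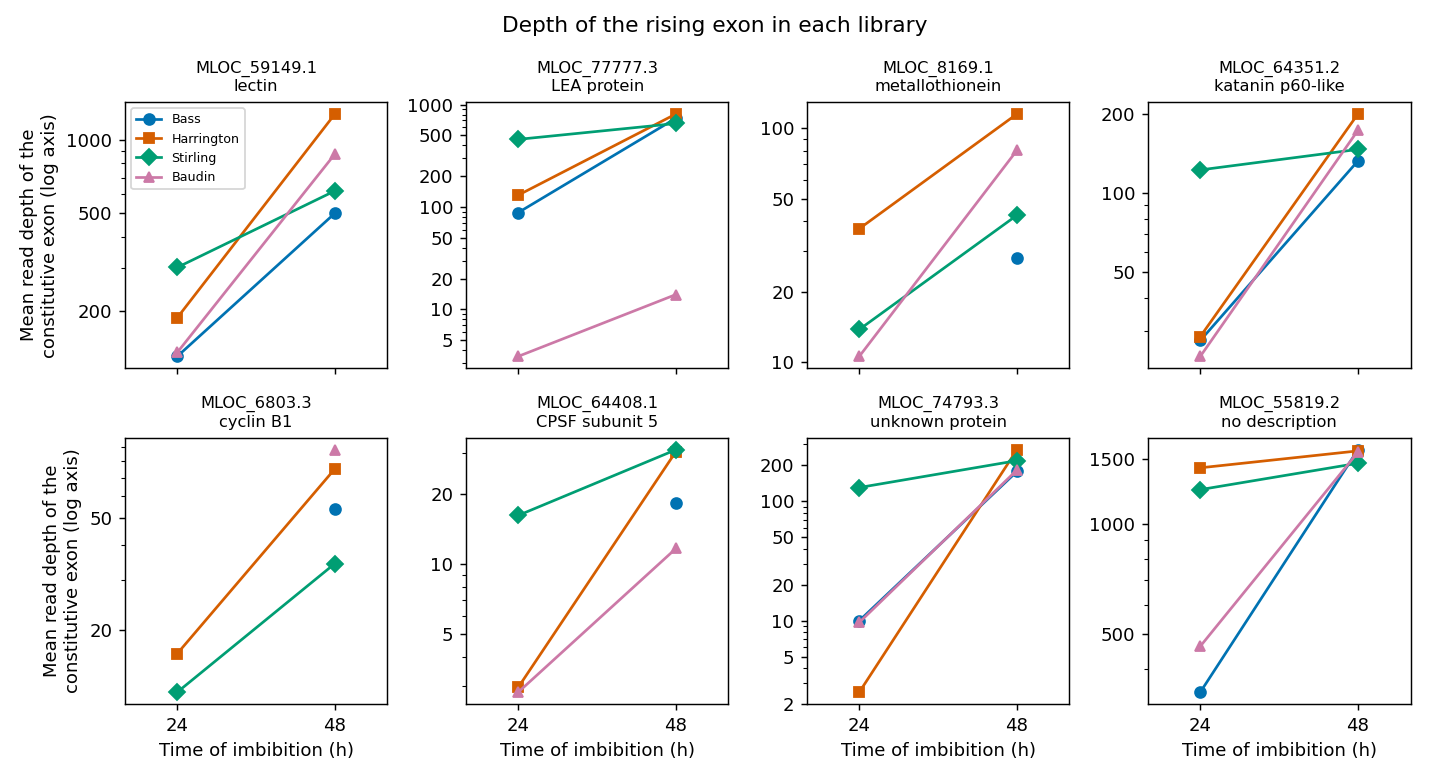
Mean read depth of the constitutive exon (y axis, log scale) at 24 h and 48 h (x axis, hours of imbibition) for 8 of the genes, with a line for each variety and a lone symbol where the exon was listed at 1 time. Stirling lies above the other varieties at 24 h in the lectin, LEA, katanin, CPSF and MLOC_74793.3 panels, and at 48 h it lies within their range in all of these but CPSF.

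The 4 genes described as unknown proteins included the highest ratio of all. The 52-nt exon of MLOC_74793.3 (LG02, minus strand, from 94296548 to 94296599) had 24 h depths of 10, 2.52, 131 and 9.67 in Bass, Harrington, Stirling and Baudin. By 48 h the varieties were at 178, 271, 219 and 183. The spread between varieties was wide at 24 h and small at 48 h, and the times did not overlap. The ratios were 17.8, 107, 1.68 and 18.9, and the ratio of Harrington stands on 131 sequenced bases at 24 h. MLOC_13881.1 (LG10, plus strand, from 92819176 to 92819478) went from 20.6 to 481 in Bass and from 156 to 408 in Stirling, and at 48 h it was also listed in Harrington at 631 and in Baudin at 380.4.

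MLOC_65277.2 (LG01, plus strand, from 142245144 to 142245187) had its largest ratio in Stirling, as no other exon listed at both times in at least 3 varieties did. It went from 7.60 to 40.9 there, from 16.8 to 60.3 in Harrington and from 10.4 to 28.5 in Baudin. MLOC_51316.3 (LG01, plus strand) met the rule with 2 neighbouring exons. Its 76-nt exon (from 35782484 to 35782559) went from 3.97 to 30.2 in Bass, from 9.28 to 25.6 in Harrington and from 16.7 to 26.7 in Stirling, but stayed at 14.1 in Baudin. Its 99-nt exon (from 35783024 to 35783122) went from 63.1 to 204 in Bass and from 59.5 to 201 in Baudin, with a ratio of 1.09 in Stirling. In Baudin the 2 exons of this gene thus differed, with a ratio of 1.005 for the shorter and 3.38 for the longer.

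The other 14 genes had no description in the study's supplementary tables, and they held the deepest exons. MLOC_67879.1 (LG02, plus strand, from 19521904 to 19522155) had depths of 54.6 in Bass and 428 in Stirling at 24 h and of 2781 and 1444 at 48 h, with 4458 in Harrington and 2559 in Baudin at 48 h. Its ratio of 50.9 in Bass was the largest in that variety. MLOC_19482.1 (LG11, minus strand, from 8018489 to 8018842) had 84.3 in Bass, 18.4 in Harrington and 600.3 in Stirling at 24 h and 1689, 999.95 and 1428 at 48 h. These were ratios of 20.04, 54.2 and 2.38, and Baudin had it only at 48 h, at 1048.5. MLOC_32633.2 (LG05, minus strand, from 97444608 to 97444710) went from 19.6 to 328 in Bass, from 84.3 to 289 in Stirling and from 17.0 to 313 in Baudin. In all 3 genes Stirling had the highest depth at 24 h and the smallest rise among the varieties listed at 24 h. For MLOC_67879.1 the only other such variety was Bass.

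The varieties past the threshold were not the same in every gene. MLOC_55819.2 (LG01, plus strand, from 61557082 to 61557258) had 24 h depths of 346, 1422, 1239 and 462 in Bass, Harrington, Stirling and Baudin. By 48 h all varieties lay between 1463 and 1593. Its ratios of 4.61 in Bass and 3.40 in Baudin thus brought them to the level that Harrington and Stirling nearly had at 24 h. MLOC_11248.2 (LG10, plus strand, from 64393649 to 64393919) had 24 h depths of 47.7, 107, 201 and 165 in Bass, Harrington, Stirling and Baudin. By 48 h they were 345, 256, 585 and 165, so Baudin alone stayed at its level, with a ratio of 1.002. MLOC_51556.6 (LG01, minus strand, from 36214882 to 36215146) had ratios of 1.97, 2.57, 1.40 and 3.36 in Bass, Harrington, Stirling and Baudin, with depths between 106 and 205 at 24 h and between 209 and 421 at 48 h.

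MLOC_71896.1 (LG01, plus strand, from 4944852 to 4945034) had ratios of 1.48, 2.32, 1.51 and 2.25 in Bass, Harrington, Stirling and Baudin, on depths between 8.72 and 13.4 at 24 h and between 17.9 and 30.1 at 48 h. MLOC_44719.1 (LG06, plus strand) met the rule with an 84-nt exon (from 19727389 to 19727472), with ratios of 3.33, 2.27 and 3.98 in Harrington, Stirling and Baudin, and with a 104-nt exon (from 19728341 to 19728444), with ratios between 1.35 and 2.10. The 2 members nearest the threshold were MLOC_57830.1 (LG01, minus strand, from 78037163 to 78037285), whose second-largest ratio was 2.05, and MLOC_11163.3 (LG10, plus strand, from 63660518 to 63660697), with 2.07. Just outside were the transcription elongation factor SPT6 gene MLOC_11971.1, with 1.98, and MLOC_74050.1, with 1.97. MLOC_61862.1 (LG01, plus strand, from 110612205 to 110612888), whose 684-nt exon was the longest of the 30, went from 16.5 to 229 in Bass and from 79.7 to 193 in Stirling. The share of its bases covered went from 0.78 to 0.97 in Bass and from 0.89 to 0.96 in Stirling.

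The last 3 genes are named here after their values were seen. MLOC_7329.1 (LG04, plus strand, from 58550517 to 58550702) was the deepest, with 1170.1 in Harrington and 1222 in Stirling at 24 h and with 48 h depths of 5212, 7023, 4031 and 8049.6 in Bass, Harrington, Stirling and Baudin. MLOC_35016.1 (LG05, plus strand, from 123092671 to 123092931) had ratios of 2.71 in Stirling and 3.23 in Baudin. MLOC_75667.2 (LG01, plus strand, from 8567754 to 8567860) had 2.36 in Bass and 2.75 in Harrington, on depths of 5.28 and 5.34 at 24 h.

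Stirling differed from the other varieties in these exons mainly at 24 h. Of 11 of the 30 exons listed in all 4 varieties at 24 h, Stirling had the highest depth in 9, against 17.8% (69 of 388) of all exons listed in all 4. Its depth there was 0.91 on the log2 scale above the median of the other varieties, and in all such exons it was -0.03. Bass had the lowest depth in 5 and Baudin in 4 of the 11. At 48 h, Harrington had the highest depth in 13 of 23 exons (25.3% of all exons), by 0.43 on the log2 scale. Among the 18 exons listed at both times in at least 3 varieties, Stirling had the lowest ratio in 12. The 24 h depths are part of the ratio that chose the genes, so this order is a description as well.

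In these exons the varieties lay closer together at 48 h. The depths form the ratio that chose the exons, so this is a description too, and nothing is read from it. In the 10 exons listed in all 8 libraries, the highest variety had a median of 4.16 times the depth of the lowest at 24 h and 1.85 times at 48 h. Over all 177 exons listed in all 8 libraries these values were 1.76 and 1.60. The median depth of the exons at 24 h was 25.5, 23.5, 96.0 and 17.0 in Bass, Harrington, Stirling and Baudin. By 48 h it was 207, 256, 193 and 165.

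**Figure D3:**
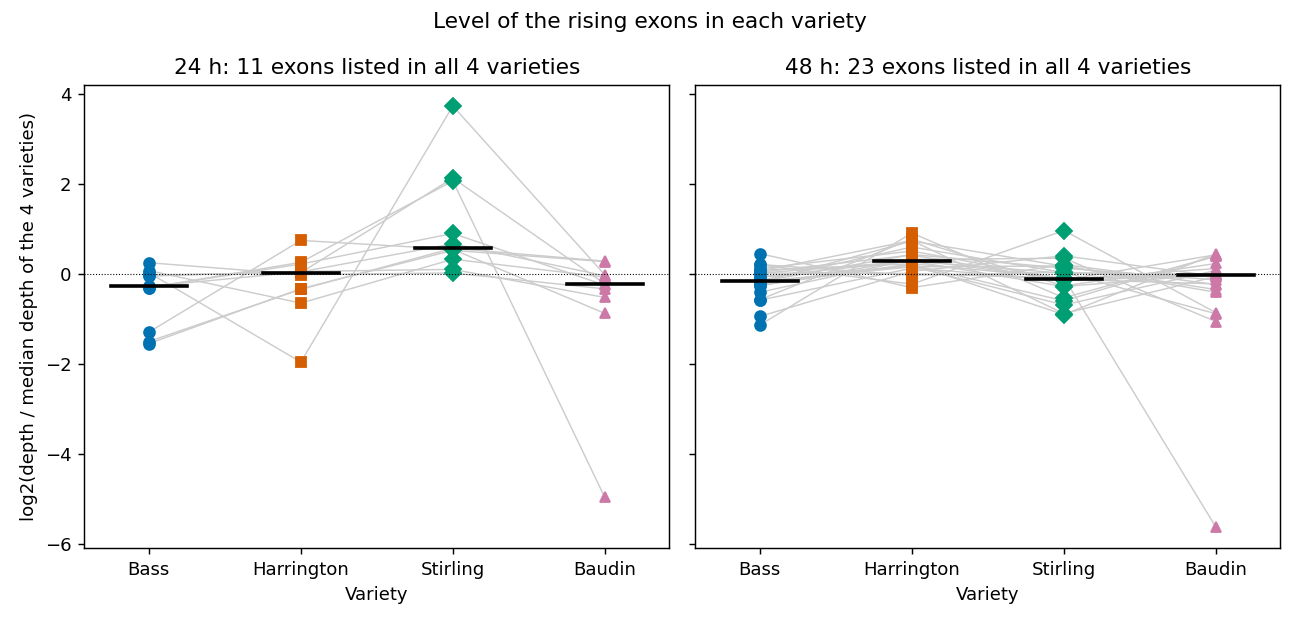
Depth of each exon in each variety relative to the median of the 4 varieties (y axis, log2 scale; grey lines join an exon and black bars are medians) at 24 h (11 exons, left) and 48 h (23 exons, right). Stirling is highest in 9 of 11 exons at 24 h and Harrington in 13 of 23 at 48 h, and the exon far below the others in Baudin is that of the LEA gene.

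The choice was repeated with each variety left out in turn, and the ratio of the chosen exons was read in the variety that had played no part. This was decided after the data were seen. The 4 sets of exons overlap, so an exon can count in several varieties. The ratios belong to the contrast that the rule used, so the counts are a description, with no test. In Bass, 11 of 11 such exons were above 1 and 8 were past 2, where 34.3% and 8.57% of all exons with a ratio in at least 2 of the remaining varieties were. In Harrington, 11 of 12 were above 1 and 10 past 2 (42% and 9.83%). In Stirling, 18 of 18 were above 1 and 8 past 2 (36.6% and 5.18%), with a median ratio of 1.80. In Baudin, 10 of 12 were above 1 and 8 past 2 (40% and 6.15%). Thus 50 of 53 ratios were above 1, and these are not 53 separate exons. The 3 below 1 were those of MLOC_1997.6, MLOC_63089.10 and the arabinogalactan peptide 16 gene MLOC_67569.2, the genes past 2 in 2 varieties but below 1 in another. A chosen exon below 1 in the left-out variety is by definition left out by the rule, so nothing is read from this.

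**Figure D4:**
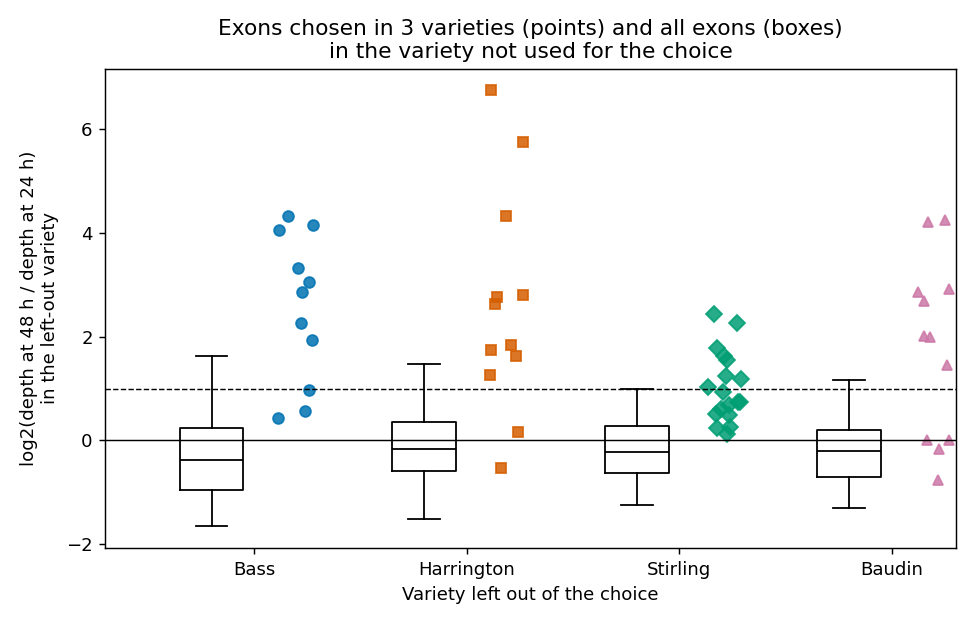
Log2 ratio of the depth at 48 h to that at 24 h (y axis) in the variety left out of the choice (x axis), for the exons chosen in the other 3 varieties (points) and for all exons with a ratio in that variety and at least 2 others (boxes, quartiles and median, with whiskers from the 5th to the 95th percentile). The solid line marks no change and the dashed line a ratio of 2, and 50 of the 53 points lie above the solid line. An exon can give points in several varieties.

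Other exons of the same genes are given as a description too, since they belong to the same contrast. The annotated exons of the 28 genes gave 96 ratios, of which 70 were 2 or more (9.23% over all genes). An annotated exon of an event can be the constitutive exon of another event of the gene, and 14 of the 96 ratios were of such exons. Of the other 82, 62 were 2 or more (8.92% over all genes) and 3 were below 1. The 3 below 1 were from MLOC_44719.1 in Stirling and from MLOC_71896.1 in Bass and Stirling, and they lay between 0.91 and 0.96.

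The 28 genes had 84 distinct events, 54 of A3S and 30 of A5S. Of the genes, 12 had A3S alone, 6 had A5S alone and 10 had both. They were listed 84 times at 24 h and 105 times at 48 h over the 4 varieties, and 23 genes had an event in all varieties at 48 h, against 10 genes at 24 h. Over the 563 genes from which they were chosen, listings went the other way, from 1975 to 1891. The counts of 23 and 10 genes have no such count over the 563 genes beside them, and nothing is read from them.

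More events of these genes were gained than lost in each variety. In Bass 31 events were listed at 24 h and 44 at 48 h, with 27 kept, 17 gained and 4 lost. In Harrington 28 became 48, with 23 kept, 25 gained and 5 lost. In Stirling 45 became 49, with 35 kept, 14 gained and 10 lost. In Baudin 29 became 55, with 24 kept, 31 gained and 5 lost. The number rose in each variety, with a mean that went from 33.25 ± 7.93 (SD, n = 4 varieties) to 49 ± 4.55 (SD, n = 4). By type, A5S events were more at 48 h in each variety (8, 6, 14 and 4 at 24 h and 16, 16, 18 and 19 at 48 h), while A3S events in Stirling were 31 at both times, with 7 gained and 7 lost. Over the 563 genes, the number of events fell in each variety, from 774 ± 66.1 (SD, n = 4) to 689.5 ± 45.6 (SD, n = 4).

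Between 77.8% and 87.1% of the events at 24 h were kept at 48 h in the 28 genes, between 60.3% and 63.1% in the 563 genes and between 25.9% and 30.9% in all genes. Listing of an exon at both times is part of the rule, for the 28 genes and for the 563, so a high share of kept events is partly fixed by the choice. Events that were new at 48 h made up 38.6%, 52.1%, 28.6% and 56.4% of the 48 h events in Bass, Harrington, Stirling and Baudin. In the 563 genes they were 26.2%, 35.3%, 29.3% and 30.7%. The share in Stirling was thus close to that of the 563 genes. A call of an event needs reads across the junction, so a deeper exon gives more chances of a call, and the part of depth in the gained events was not tested.

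**Figure D5:**
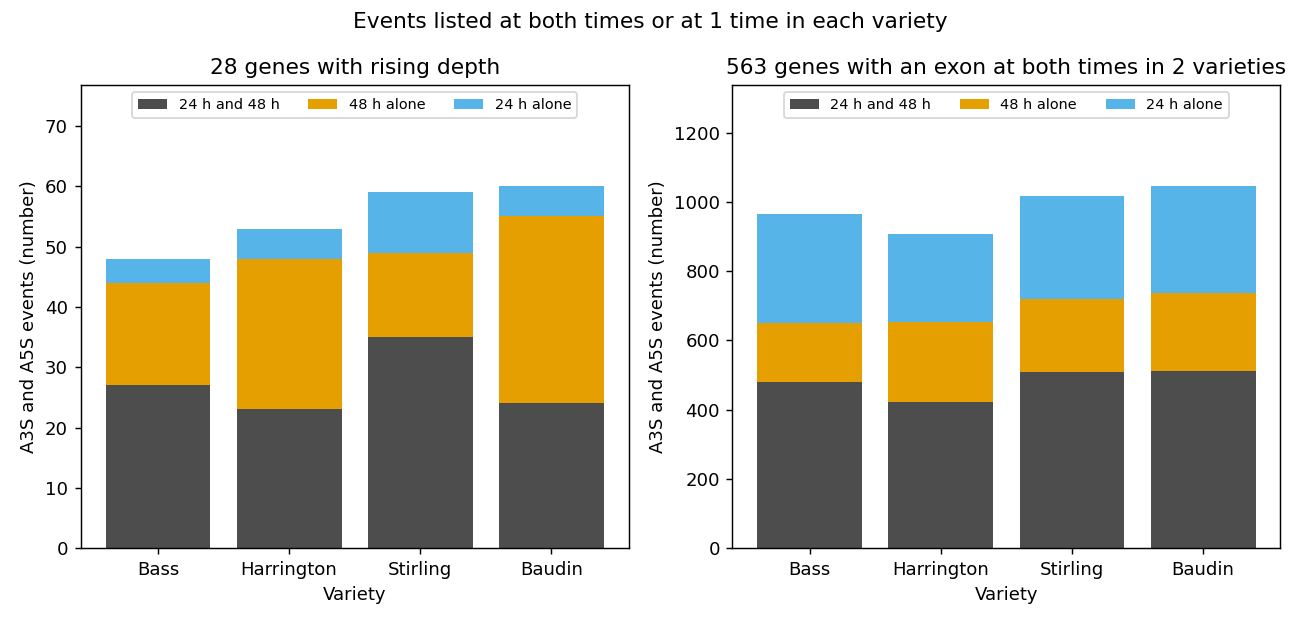
Number of A3S and A5S events (y axis) in each variety (x axis), divided into events listed at 24 h and 48 h, at 48 h alone and at 24 h alone, for the 28 genes (left) and for the 563 genes with the same exon at both times in at least 2 varieties (right). Bars start at 0, and gained events outnumber lost ones in all 4 varieties in the 28 genes (for example 31 against 5 in Baudin) and in none in the 563 genes.

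Of the 84 events, 47 were listed at both times in any variety, 28 at 48 h alone and 9 at 24 h alone. Of the 28, 10 events were seen in at least 2 varieties. Listing of an exon at both times is part of the rule. The counts have no such counts over all genes that could be chosen beside them, and nothing is read from them. MLOC_44719.1 had an A3S event that removes 27 nt and an A5S event that removes 18 nt, each in Harrington, Stirling and Baudin at 48 h. The A5S event of MLOC_57830.1 that adds 108 nt was listed in 3 varieties at 48 h. At 24 h this gene had an event that adds 4 nt at the same exon, in 2 varieties. The metallothionein gene gained an A3S event that removes 4 nt and an A5S event that removes 2 nt, each in 2 varieties, and MLOC_19482.1 gained A5S events that add 4 nt and remove 5 nt. The cytochrome P450 gene gained an A5S event that adds 4 nt, MLOC_74793.3 an A5S event that adds 21 nt and MLOC_11163.3 an A3S event that removes 50 nt, each in 2 varieties.

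There were 11 events in all 8 libraries. This count also has no such count over all genes that could be chosen beside it, and nothing is read from it. The katanin gene had the most events of both types, 9 of A3S and 5 of A5S, and its listings rose from 16 at 24 h to 28 at 48 h. The lectin gene had an A5S event that removes 44 nt in every library, and its 4 other events were each in 1 or 2 libraries. The LEA gene had an A3S event that removes 6 nt in every library and 4 others in 1 or 2 libraries.

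The depth of the stretch of bases between the annotated and the alternative site was computed from the depths of both forms of the exon and expressed as a percentage of the depth of the bases common to both forms. It is a ratio of depths and not the share of transcripts that hold the stretch, since 19 of 329 values were above 100%, up to 223% in MLOC_71896.1. In the LEA gene the stretch of 6 nt was between 15.7% and 19.1% of the common depth in all 8 libraries, while the depth of the annotated exon changed from 454 to 4541 in Bass. In the lectin gene the stretch of 44 nt had 24 h shares of 73.6%, 61.9%, 75.7% and 64.0% in Bass, Harrington, Stirling and Baudin. By 48 h they were 66.2%, 66.9%, 56.7% and 61.6%. In MLOC_51316.3 the stretch of 58 nt was between 21.6% and 35.5% in all libraries. Other stretches changed more. That of MLOC_11248.2 went from 55.7% to 27.6% in Bass, and the 232-nt A5S stretch of MLOC_51316.3 from 86.6% to 21.6% in Bass and from 19.8% to 60.6% in Baudin. Over 109 values listed at both times in a variety, the percentage was higher at 48 h in 63 and lower in 44, the median absolute change was 3.75 percentage points, and 16 changed by over 20 points.

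Some stretches were barely covered. In MLOC_35016.1 the stretch of 18 nt was between 0.87% and 4.95% in the 6 libraries that listed it. In MLOC_57830.1 the stretch of 108 nt was at 0.42% in Bass, 0.36% in Stirling and 0.00% in Harrington at 48 h, so the long form was listed with next to no depth over the added bases. Over all events of the 28 genes listed at both times (27, 23, 35 and 24 in Bass, Harrington, Stirling and Baudin), the median change of the log2 ratio of stretch to common depth was 0.00, -0.09, 0.08 and 0.00 in Bass, Harrington, Stirling and Baudin. The mean was -0.00078 ± 0.07 (SD, n = 4), where the events of all genes had -0.01 ± 0.01 (SD, n = 4). The direction differed between the varieties.

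Of the A3S events of the 28 genes, 57.4% changed the exon by a multiple of 3 nt, against 46.8% in the 563 genes and 39.7% in all genes. For A5S events the values were 36.7%, 35.8% and 33.1%. A3S events mostly shortened the exon, in 79.6% of cases (67.5% in the 563 genes). A stretch of 3 nt was found in 13.0% of the A3S events, against 14.4% in the 563 genes. The exons that met the rule had a median length of 123 nt, between 27 and 684 nt, against 136 nt for all exons that could be chosen, and 5 of 30 were 60 nt or shorter (16.7% against 6.56%).

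The genes lay on 7 linkage groups, where the 563 genes lay on 12 of the 14 named in the lists. On LG01 were 14 of 28 (50%), where 35.2% of the 563 genes lay. LG02 had 4, LG04 and LG10 had 3 each, LG05 had 2, and LG06 and LG11 had 1 each. Of the genes, 16 were on the plus strand (57.1%, against 50.6% of the 563 genes). The lists do not say whether an exon is coding or untranslated.

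Descriptions were at hand for 244 of the 563 genes and were searched for words of each function. The value of a gene is the median ratio of its exon with the highest median. For genes with several exons this raises the values and the counts above 1. Of 3 genes with words for embryo proteins, the lectin and LEA genes were members, and the third, for the transcription factor viviparous 1, had a median log2 ratio of 0.61. The list of endosperm and aleurone proteins held 1 gene, for alpha-amylase, with 0.25, so few defining genes of either tissue could be checked. Of 5 genes with words for cell division, cyclin B1 was the only member and the other 4 were lower at 48 h. Those 4 are described as a cyclin dependent kinase inhibitor, a histone deacetylase and chromatin remodelling proteins. The list thus does not show how other genes of cell division changed. Of 6 genes of carbon metabolism, 5 were above 1 and the sorbitol-6-phosphate dehydrogenase gene was the member. The word ATPase put katanin among 6 genes of transport, which is not what katanin does.

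The words for RNA processing did not find the CPSF subunit 5 gene, which acts on pre-mRNA, and they found a DNA helicase gene. Of the 11 genes they found, 10 were below 1 with a median log2 ratio of -0.60. Among the lists with no member, ribosomal proteins had 9 of 12 genes above 1 by their highest exon, with a median of 0.15. Another exon of MLOC_34860.1, MLOC_5129.1 and MLOC_55595.2, which are among the 9, had a median ratio below 1. No member was found among 14 genes of proteolysis, 14 of signalling, 10 of transcription, 5 found with words for translation factors (2 of them transcription elongation factors), 5 of the cell wall, 3 of hormones, 3 of the plastid and 2 of the cytoskeleton. Their medians lay between -0.12 and 0.25. By the same highest exon, 235 of all 563 genes were above 1, 328 were below and the median log2 ratio was -0.14.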

How the data were processed

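Per the labels and methods, the authors used SOAP2 for alignment to the IBSC assembly of Morex and SOAPsplice for junctions. The deposited A3S and A5S lists give the start, end, mean read depth (coverage, not scaled for library size) and a last value for 3 exons per event. The deposited note calls this value a minimum depth. It was read here as the share of bases covered. The mean read depth of the constitutive and annotated exons was read as a mean over those bases. Linkage group names and coordinates are those of the lists. Junction reads are not given, so depth behind an event is known only as exon depth.

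Ratios, counts and medians were computed with Python 3.11.15, pandas 2.3.3 and numpy 2.4.6, and the functions were tested on simulated lists. With 1 library per variety and time and genes chosen on the same contrast, no test of the times was run. The stretch depth was computed with 0.5 added before the log2 ratio, and 18 of 329 values below 0 were set to 0. Named were genes listed at both times in at least 3 varieties, the 10 with the largest median ratio, those with a description, those nearest the threshold and those with most events, which gave 25 of 28. The members and word lists were chosen with earlier results of these data known. Alternatives covered the threshold, number of varieties, scaling, minimum depths, list type, and each variety left out. Descriptions came from the study's supplementary tables, and no genome sequence was used here.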

Additional observations from a re-analysis of the deposited data

Results flagged for a closer look

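In groups of 4 varieties, 4 of 50 groups examined had a value far from the other varieties. Chance gives about 1 in 20 for separate groups, but a ratio and its depths share values, so 4 of 50 cannot be set against that rate. The depths and ratios are also those that chose the genes, so the values are a description. At 24 h, Stirling had a depth of 123 in the katanin exon of MLOC_64351.2 and of 131 in the exon of MLOC_74793.3, far above the other varieties. Harrington had a ratio of 107 in the exon of MLOC_74793.3. Stirling lost 10 events of the 28 genes between 24 h and 48 h, where the other varieties lost 4 or 5, but it also had the most at 24 h, 45 against 28 to 31. As a share of the 24 h events it lost 22.2%, against 12.9% to 17.9%.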

How the results depend on the processing

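The number of genes was 56 with a threshold of 1.5, 16 with a threshold of 3 and 11 with at least 3 varieties. It was 10 with the A5S lists alone and 19 with the A3S lists alone. Leaving out a variety gave between 18 and 23 genes, and the lowest was without Stirling. Scaling by mapped reads gave 29 genes, of which 27 were among the 28, and scaling by the median of the variety gave 41, with all 28 among them. With any exons of a gene in place of the same exon there were 32 genes and katanin was lost. A minimum depth of 10 at either time kept all 28, and a 24 h depth of at least 5, chosen after seeing the data, left 25 and lost the genes for CPSF subunit 5, ribonucleoside hydrolase and MLOC_73911.1. The median log2 ratio lay between 1.67 and 2.2 under both scalings and with a variety left out, the alternatives run for it. Counted by gene and type in place of the event, the mean was 31.75 at 48 h and 9.25 at 48 h alone. Leaving out a variety gave means between 29.3 and 35 events at 24 h, 47 and 50.7 at 48 h, 24.7 and 28.7 kept and 18.7 and 24.3 gained. The change in stretch depth did not keep its sign. It was 0.088 with at least 20 bases between the sites and between -0.03 and 0.03 with a variety left out, 0.028 without Harrington. No paired test of the times was run, because the contrast between them chose the genes. Each ratio pairs the 2 times of a variety. Depths under 5 at 24 h, in 10 ratios of 7 genes, limit the size of those ratios.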
